A study of Mus musculus with 4 samples.

Results

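The Hox genes are the homeobox transcription factors that lie side by side in 4 chromosomal clusters and give cells along the head-to-tail axis their positional identity. They were read here in mouse somitic gastruloids by RNA sequencing, as 38 genes out of the 24831 genes listed. Their symbols consist of Hox, a cluster letter from a to d and a paralog group number. The set was chosen with earlier results of these data known. Of the 38 genes, 29 had enough counts to be tested for a difference and 9 did not. Gastruloids are aggregates of embryonic stem cells that elongate and form presomitic and somitic tissue in culture. All 4 libraries came from the E14 triple reporter line, in which endogenous Zeb2 is tagged with HA and the FKBP12 F36V degron, so that controls and treated cells carried the same tagged allele. ZEB2 is a zinc finger repressor, and dTAG-13 is a small molecule that brings a ubiquitin ligase to the degron and so marks the fusion protein for destruction. Aggregates of 300 cells received 3 μM CHIR99021, which activates WNT signalling, at 48 h and went into 10% Matrigel at 96 h. The dTAG-13 group (2 libraries) received 100 nM of the compound at 72 h and 96 h. The other group (2 libraries) is titled untreated, while DMSO is the control in the growth protocol. The line is not stated to be 1 clone or several, and no label says whether replicates 1 and 2 were separate cultures, so p-values cover only how far these libraries differ, and that may be technical variation.

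Hox genes are numbered by paralog group from 1 to 13, in the order in which they lie along the chromosome. As background, low-numbered genes at the 3' end of a cluster are switched on early and reach forward to the hindbrain, and high-numbered genes at the 5' end come on later and mark the tail end, a property called collinearity. In the tail bud, WNT, FGF and CDX factors drive the central groups, while retinoic acid acts on the 3' end. HOX proteins bind DNA together with TALE homeodomain cofactors of the PBX and MEIS families. The genes fall here into groups 1 to 4 (hindbrain and neck, 11 genes), groups 5 to 9 (trunk, 15 genes) and groups 10 to 13 (lumbar to tail, 12 genes). Cluster a lies on chromosome 6, b on chromosome 11, c on chromosome 15 and d on chromosome 2 (GRCm38.p6).

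The libraries held 11491330 to 12716172 reads in genes, of which 11989 to 19712 fell in the 38 Hox genes. Zeb2 mRNA was at 98.3 and 164 CPM (counts relative to the library total, scaled by TMM factors) in untreated replicates 1 and 2 and at 103 and 108 CPM in dTAG-13 replicates 1 and 2, the order used for all values that follow. This does not check the labels, since dTAG-13 acts on the protein. No gene passed an adjusted p of 0.05 over the 13602 genes tested with edgeR's quasi-likelihood test (0% called, smallest adjusted p = 0.760). Without adjustment, 479 genes were under 0.05. DESeq2 called 40 of the 11756 genes for which it gave an adjusted p (0.34%). Defining markers of somites (Meox1, at 37.8 to 168 CPM) and presomitic mesoderm (Tbx6, at 7.30 to 19.5 CPM) were present in all 4 libraries.

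Of the 11 Hox genes of the head end, 10 were lower with dTAG-13 in both replicate numbers, most trunk genes were lower by less, and the 3 tested genes of the tail end were higher in both numbers. None of these differences passed edgeR's adjusted threshold. Of the 29 tested genes, 23 had a negative log2 fold change (49.1% of all genes tested did) and 6 a positive one (50.9%). Within both replicate numbers, 18 were lower, against 23.9% of all genes tested, and 5 were higher, against 27.7%. For 10 of the 29 both dTAG-13 libraries lay below both untreated ones, against 11.9% of all genes tested, and for 0 of the 29 did they lie above, against 14.4%. The median log2 fold change was -0.47 over the tested Hox genes and 0.0040 over all genes tested. Without untreated replicate 2 the Hox median was -0.099, without untreated replicate 1 it was -0.27, and without dTAG-13 replicate 2 it was -0.22. edgeR called 0 Hox genes, 6 had an unadjusted p under 0.05, all of them lower (at that level 1.23% of all genes tested were lower and 2.29% higher), and DESeq2 called 2, Hoxc4 and Hoxb3, both lower (0.119% of all genes it tested). A fit with the replicate number as a block called 16 of the 29, 13 lower and 3 higher, against 4.68% of all genes tested (1.77% lower, 2.9% higher), and nothing in the labels says that a number marks a shared culture or day. In bulk RNA, fewer cells that express a gene and less RNA per cell cannot be told apart.

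**Figure D1:**
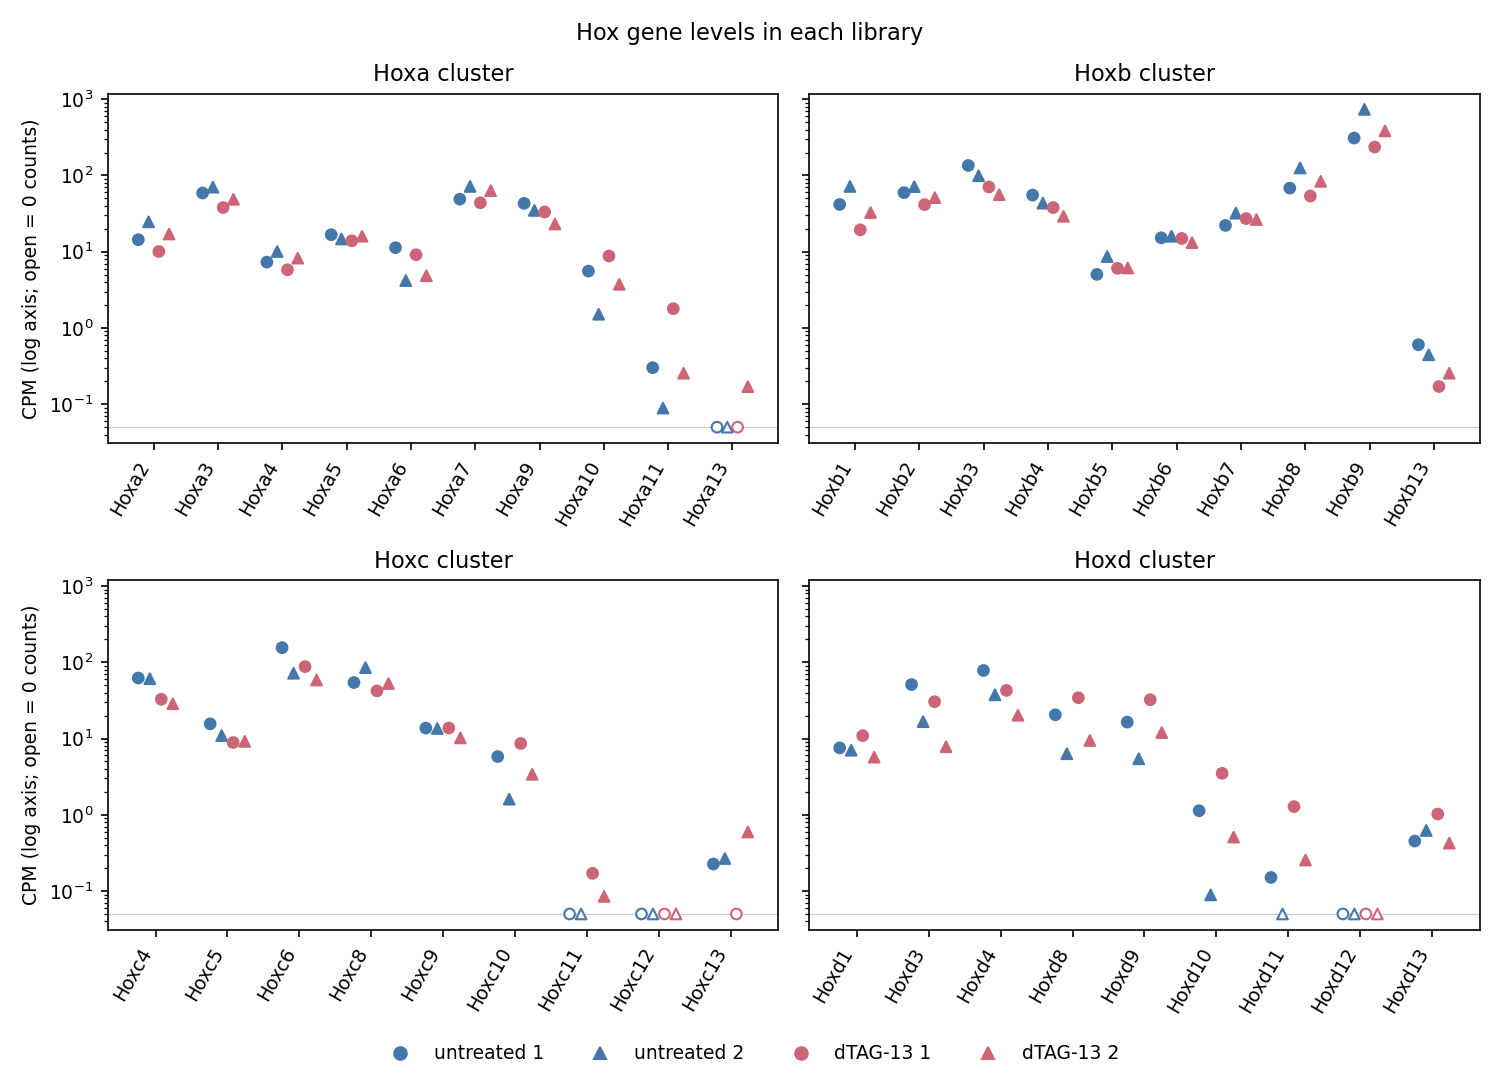
CPM on a log axis (vertical) for each of the 38 Hox genes in paralog order (horizontal), 1 panel per cluster, with blue for untreated and red for dTAG-13 and circles and triangles for replicates 1 and 2; open symbols at the bottom line are libraries with 0 counts. Hoxb9 is at the top in every library (236 to 736 CPM), and levels in groups 11 to 13 stay at or below 1.79 CPM.

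Levels between genes were set side by side per kilobase of exon. Hoxb9, a trunk gene, was highest with a mean over the 4 libraries of 162 CPM per kb, and its lowest library (91.7) lay above the highest library of any other Hox gene (64.6, Hoxc6 in untreated replicate 1). Hoxc6 followed with 38.8 CPM per kb and Hoxb8 with 31.4, and the ranges of these 2 over the libraries overlapped. Behind them, Hoxb3 (21.2), Hoxc8 (20.7), Hoxa7 (19.8), Hoxc4 (18.0), Hoxb1 (17.8), Hoxb7 (17.5), Hoxb4 (16.1), Hoxb2 (16.02) and Hoxd4 (15.1) had means within the spread of their neighbours. In cluster a the highest were Hoxa7 and Hoxa2 (9.32 CPM per kb), and in cluster d Hoxd4 and Hoxd9 (7.74). Cluster b took 49.6% to 68.7% of the Hox reads of a library. The step down at the 5' end was steep: Hoxc10 had 2.54, Hoxa10 1.50 and Hoxd10 0.719 CPM per kb, and no gene of groups 11 to 13 had a mean above 0.266.

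Among groups 1 to 4 all 11 genes were tested, 10 were lower with dTAG-13 by the edgeR fold change and lower in both replicate numbers, and Hoxd1 was the exception. The median log2 fold change was -0.57, a 1.49-fold difference, at -0.63 within number 1 and -0.57 within number 2. For 6 of the 11 both dTAG-13 libraries lay below both untreated ones (11.9% of all genes tested) and for 0 above (14.4%). Leaving out any 1 library kept this median between -0.76 and -0.64, and it was -0.52 without the genes whose annotated spans overlap another listed gene.

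Hoxc4, expressed in the posterior hindbrain and spinal cord, had the smallest p of the Hox genes. It was at 62.2 and 60.9 CPM untreated and at 32.8 and 28.6 CPM under dTAG-13. Both untreated values lay close together and well above both treated ones. The log2 fold change was -1.004 ± 0.15 (SE, edgeR adjusted p = 0.760, DESeq2 adjusted p = 0.0027) and stayed between -1.11 and -0.93 without any 1 library. Hoxb3, which acts in the hindbrain and pharyngeal arches, was at 135 and 99.1 CPM untreated and at 70.6 and 56.0 CPM under dTAG-13. Its groups did not overlap, and its log2 fold change was -0.89 ± 0.20 (edgeR adjusted p = 0.774, DESeq2 adjusted p = 0.0496). The RefSeq spans of Hoxb3 and Hoxb4 overlap, so reads in that stretch may not be assigned to either with certainty.

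Hoxb1, the gene that gives rhombomere 4 its identity, had the most negative log2 fold change of the Hox genes. It was at 41.7 and 71.7 CPM untreated and at 19.4 and 32.6 CPM under dTAG-13. Each treated library was below both untreated libraries, and replicate 2 was above replicate 1 in both groups. The log2 fold change was -1.12 ± 0.38 (edgeR adjusted p = 1.00), with -1.10 within number 1 and -1.13 within number 2, and without untreated replicate 2 it was -0.68. Hoxb2, which is also needed in rhombomere 4, was at 59.6 and 71.3 CPM untreated and at 41.5 and 51.2 CPM under dTAG-13, with no overlap and a log2 fold change of -0.50 ± 0.17. Hoxb4, a gene of the lower hindbrain and neck vertebrae, was at 55.3 and 43.3 CPM untreated and at 38.0 and 29.1 CPM under dTAG-13, again without overlap. Cluster b was thus lower in all 4 of its genes of groups 1 to 4, each with an unadjusted p under 0.05 and none with an adjusted p under 0.05 in edgeR.

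The 300-base promoter table from RefSeq (GRCm38.p6) holds 24 windows for 22 of the 38 genes, and 3 are shown: Hoxb1, with the most negative log2 fold change, and Hoxd4 and Hoxd8, the neighbours between which cluster d divides. The bases lie before the listed transcript start on the plus strand (chr11:96365508-96365751, chr2:74721728-74721977 and chr2:74704365-74704614), with exon bases of GENCODE M21 left out. The RefSeq span of Hoxb1 begins at 96365746, so the last bases shown for Hoxb1 lie inside it. Capitals mark TGATNNAT, a motif known for joint binding of PBX and HOX proteins, and TTTAT, the core known for CDX factors, on either strand.
Hoxb1: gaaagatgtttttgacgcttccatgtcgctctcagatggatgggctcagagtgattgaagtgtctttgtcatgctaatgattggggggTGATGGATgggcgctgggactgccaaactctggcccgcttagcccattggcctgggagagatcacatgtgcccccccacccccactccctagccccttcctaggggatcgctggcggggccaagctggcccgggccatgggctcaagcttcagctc
Hoxd4: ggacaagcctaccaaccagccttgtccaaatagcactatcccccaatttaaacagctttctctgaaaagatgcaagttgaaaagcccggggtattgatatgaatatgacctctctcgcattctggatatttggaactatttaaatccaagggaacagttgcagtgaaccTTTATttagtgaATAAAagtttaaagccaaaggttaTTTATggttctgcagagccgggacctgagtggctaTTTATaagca
Hoxd8: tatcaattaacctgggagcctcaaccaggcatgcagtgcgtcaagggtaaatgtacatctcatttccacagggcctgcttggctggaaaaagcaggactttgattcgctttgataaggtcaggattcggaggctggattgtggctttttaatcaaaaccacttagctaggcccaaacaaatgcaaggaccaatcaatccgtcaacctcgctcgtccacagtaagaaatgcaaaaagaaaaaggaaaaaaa
The Hoxb1 window holds 1 TGATNNAT match, which is known in this promoter as part of an autoregulatory element. The Hoxd4 window holds 4 matches to TTTAT and the Hoxd8 window none of either motif. Whether matches go with the difference was not tested. TGATNNAT was also in the windows of Hoxa2 and Hoxb8, which had negative log2 fold changes, and in 1 of the untested Hoxd11. TTTAT was also in the windows of Hoxa2, Hoxa7, Hoxb8 and Hoxd3, all with negative log2 fold changes. Both windows of Hoxa10, which was higher, hold 1 TTTAT each. Windows of the untested Hoxd11 and Hoxd13 hold TTTAT too. The Hoxc4 window, of the gene with the smallest p, holds neither motif. The windows of Hoxc4 and Hoxb8, and 1 each of Hoxa10 and Hoxd11, lie inside the RefSeq span of their gene. Over the 250 bases before the start, TGATNNAT was in 4 of the 24 Hox windows (16.7%) and in 7.68% of all 32851 windows, and TTTAT in 9 of 24 (37.5%) and in 37.3% of all. The E-box CACCTG, known as a ZEB binding motif, was in 0 of 24 Hox windows and 17.2% of all windows, and its shorter form CACCT, which lies within it, was in 7 of 24 (29.2%) and 46.0% of all. The motifs were searched on both strands, and a match describes letters only.

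The remaining genes of the head end gave smaller or less even differences. Hoxa3, known for its role in the thymus and parathyroid, was at 58.9 and 70.3 CPM untreated and at 38.0 and 48.7 CPM under dTAG-13, a log2 fold change of -0.57 ± 0.18 with no overlap. Hoxa2, which sets the identity of the second pharyngeal arch, was at 14.4 and 24.6 CPM untreated and at 10.1 and 17.1 CPM under dTAG-13, where the groups overlapped while each number was lower (-0.51 and -0.53). Its log2 fold change of -0.52 was -0.084 without untreated replicate 2. Hoxa4 was at 7.31 and 10.1 CPM untreated and at 5.80 and 8.24 CPM under dTAG-13. Its 2 ranges overlapped as well. The RefSeq spans of Hoxa4, Hoxa5 and Hoxa6 lie inside that of Hoxa3, so reads there may not be assigned with certainty. Hoxd1, the exception, was at 7.53 and 7.03 CPM untreated and at 10.9 and 5.69 CPM under dTAG-13, higher in number 1 (0.53) and lower in number 2 (-0.30), and its log2 fold change of 0.19 was -0.36 without dTAG-13 replicate 1.

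Trunk genes of groups 5 to 9 were all tested, and 13 of 15 had a negative log2 fold change, 8 of them in both numbers. The median was -0.17, at -0.26 within number 1 and -0.28 within number 2, with extremes of -0.40 when dTAG-13 replicate 1 was left out and -0.11 without untreated replicate 2. Within the trunk groups the sizes differed: genes of groups 5 to 7 were near their untreated levels in clusters a and b, while Hoxc5, Hoxc6, Hoxc8, Hoxa9, Hoxb8 and Hoxb9 were lower by 0.47 to 0.75 on the log2 scale. None of the 15 had an unadjusted p under 0.05.

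Hoxb9, the most abundant Hox gene, was at 310 and 736 CPM untreated and at 236 and 384 CPM under dTAG-13. Replicate 2 was the higher in both groups, and the groups overlapped. Its log2 fold change was -0.75 ± 0.52, with -0.39 within number 1 and -0.94 within number 2. Without untreated replicate 2 it was 0.0018. Hoxb8, the 3' neighbour of Hoxb9, had the same order of libraries (68.3 and 125 CPM untreated, 53.8 and 83.7 CPM under dTAG-13). The log2 fold change of Hoxb8 was -0.49, with -0.34 within number 1 and -0.58 within number 2. Without untreated replicate 2 it was 0.010.

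Hoxc8, known for motor neuron identity in the brachial spinal cord, was at 54.3 and 85.1 CPM untreated and at 42.1 and 52.7 CPM under dTAG-13. The groups did not overlap, the log2 fold change was -0.55 ± 0.25, and it was -0.19 without untreated replicate 2. Hoxa9, a gene of the thoracic trunk, was at 43.2 and 34.8 CPM untreated and at 33.2 and 23.1 CPM under dTAG-13, a log2 fold change of -0.47 ± 0.22 with no overlap that was -0.25 without the second dTAG-13 replicate and -0.76 without the first. Hoxc5 was at 15.6 and 10.9 CPM untreated and at 8.87 and 9.17 CPM under dTAG-13, and its log2 fold change of -0.56 ± 0.28 was -0.29 without untreated replicate 1. Hoxc6, a gene of the neck-to-thorax transition, was at 156 and 71.8 CPM untreated and at 87.7 and 58.5 CPM under dTAG-13. The untreated replicates of Hoxc6 were further apart than the groups. The log2 fold change of Hoxc6 was -0.64, with -0.83 within number 1 and -0.29 within number 2. Without untreated replicate 1 it was 0.012.

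The other trunk genes of clusters a, b and c stayed close to their untreated levels. Hoxa5, needed for the lung and the neck skeleton, was at 16.7 and 14.7 CPM untreated and at 13.9 and 15.96 CPM under dTAG-13. Hoxa6 was at 11.3 and 4.18 CPM untreated and at 9.13 and 4.84 CPM under dTAG-13, and Hoxa7 at 48.9 and 71.8 CPM untreated and at 43.8 and 63.2 CPM under dTAG-13. Both followed the replicate number more closely than the treatment. Hoxb5 was at 5.05 and 8.63 CPM untreated and at 6.06 and 6.11 CPM under dTAG-13, Hoxb6 at 15.2 and 15.9 CPM and then 14.9 and 13.2 CPM, and Hoxb7 at 22.1 and 32.0 CPM and then 27.2 and 26.4 CPM. Hoxc9, known for thoracic motor neuron identity, was at 13.7 and 13.5 CPM untreated and at 13.7 and 10.2 CPM under dTAG-13. The log2 fold changes of these 7 genes lay between -0.19 and -0.01, each smaller than its standard error. Only Hoxb6 of these had groups that did not overlap, and Hoxa5, Hoxa6, Hoxa7, Hoxb5 and Hoxb7 turned positive without 1 of the libraries.

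Cluster d divided between Hoxd4 and Hoxd8, its neighbouring genes, with Hoxd1 apart. Hoxd1, at the 3' end, was higher in number 1 (0.53) and lower in number 2 (-0.30). On the 3' side, Hoxd3 was at 51.1 and 16.6 CPM untreated and at 30.5 and 7.81 CPM under dTAG-13, and Hoxd4, known at the hindbrain and neck border, was at 78.1 and 37.5 CPM untreated and at 42.7 and 20.2 CPM under dTAG-13. Both were lower in each number (Hoxd3 by -0.74 and -1.07, Hoxd4 by -0.87 and -0.88 on the log2 scale). On the 5' side, Hoxd8 was at 20.5 and 6.32 CPM untreated and at 34.3 and 9.43 CPM under dTAG-13, and Hoxd9 at 16.4 and 5.43 CPM untreated and at 32.3 and 11.97 CPM under dTAG-13. Both were higher in each number (Hoxd8 by 0.74 and 0.57, Hoxd9 by 0.97 and 1.12), and they were the 2 of the 15 trunk genes with a positive log2 fold change.

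The groups overlapped for each of Hoxd3, Hoxd4, Hoxd8 and Hoxd9, because replicate 1 was about 2 to 4 times replicate 2 in both. The fold changes of the whole groups were therefore imprecise: -0.83 ± 0.94 for Hoxd3, -0.88 ± 0.55 for Hoxd4, 0.70 ± 0.92 for Hoxd8 and 1.01 ± 0.76 for Hoxd9, all at an edgeR adjusted p of 1.00. Without untreated replicate 1, Hoxd3 was 0.19 and Hoxd4 -0.27, and without dTAG-13 replicate 1 Hoxd8 was -0.51 and Hoxd9 0.13. Hoxd8 was 1.78 and Hoxd9 2.01 when untreated replicate 1 was left out, and Hoxd3 was -2.12 and Hoxd4 -1.52 when dTAG-13 replicate 1 was. A ratio within a library removes the scaling, and it was picked after the values were seen. Reads of Hoxd8 and Hoxd9 together were 0.286 and 0.217 of those of Hoxd3 and Hoxd4 in the untreated libraries and 0.910 and 0.764 of them with dTAG-13. Both treated ratios lay above both untreated ones, and with 2 libraries a group an exact permutation test cannot go below p = 0.333. Other ratios picked in the same way did not all separate the groups. Hoxc9 was 0.220 and 0.222 of Hoxc4 untreated and 0.419 and 0.356 of it with dTAG-13, again apart. Hoxa10 was 0.0946 and 0.0215 of Hoxa3 untreated and 0.231 and 0.0767 of it with dTAG-13, and Hoxb9 was 1.06 and 2.58 times Hoxb1 to Hoxb4 together and then 1.39 and 2.27 times, and in both of these the groups overlapped. The spans of Hoxd3 and Hoxd4 overlap each other, while those of Hoxd8 and Hoxd9 overlap no listed gene.

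**Figure D2:**
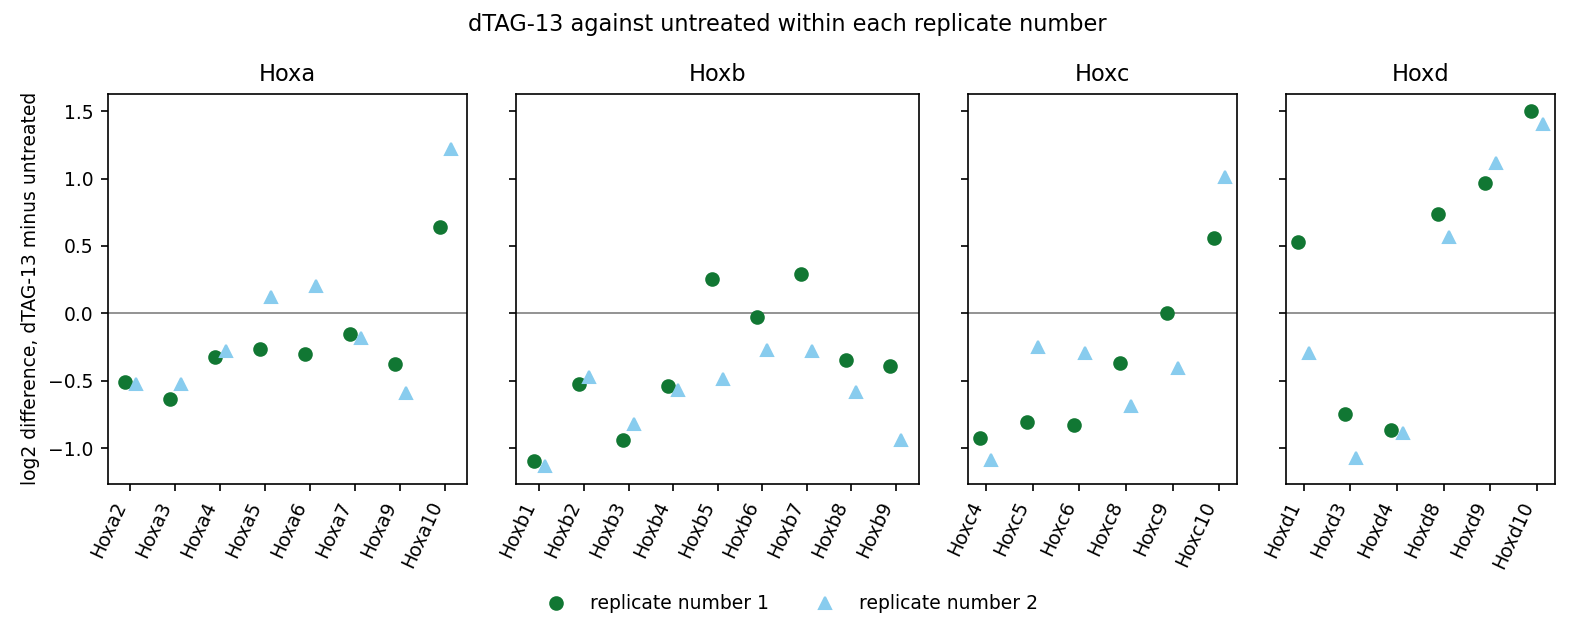
Difference in log2 CPM between dTAG-13 and untreated (vertical) for the 29 tested Hox genes in paralog order within each cluster, with circles for replicate number 1 and triangles for number 2; 0 means equal levels. Hoxd3 and Hoxd4 lie below 0 and Hoxd8, Hoxd9 and Hoxd10 above it in both numbers, and the 3 genes of group 10 are above 0 by 0.56 to 1.50.

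At the tail end, only the 3 genes of group 10 of the 12 listed in groups 10 to 13 were tested, and each was higher with dTAG-13 in both numbers. Hox10 proteins are known to suppress ribs in the lumbar region. Hoxa10 was at 5.57 and 1.51 CPM untreated and at 8.79 and 3.74 CPM under dTAG-13, with differences of 0.64 within number 1 and 1.22 within number 2. Hoxc10 was at 5.80 and 1.60 CPM untreated and at 8.62 and 3.40 CPM under dTAG-13 (0.56 and 1.01). Hoxd10 was at 1.13 and 0.0890 CPM untreated and at 3.50 and 0.510 CPM under dTAG-13 (1.50 and 1.40), and it passed the filter through its counts in replicate 1 of both groups. The RefSeq spans of Hoxd10 and Hoxd11 overlap.

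For all 3 the replicates of a group were further apart than the groups, and untreated replicate 1 was above dTAG-13 replicate 2. The log2 fold changes were 0.81 ± 0.73 for Hoxa10, 0.69 ± 0.75 for Hoxc10 and 1.65 ± 1.27 for Hoxd10, with unadjusted p from 0.252 to 0.397. Their median of 0.81 was -0.13 without dTAG-13 replicate 1 and 1.85 when dTAG-13 replicate 2 was left out. It was 2.69 when untreated replicate 1 was left out and 0.74 when untreated replicate 2 was. The median was thus negative in 1 of the 4 fits that leave out a library, where Hoxc10 and Hoxd10 turned negative and Hoxa10 was 0.065.

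The 9 genes under the filter were all of groups 11 to 13. Hoxa11, known in the sacral region and the forearm, had 4 and 1 counts in the untreated libraries and 21 and 3 with dTAG-13, and Hoxd11 had 2 and 0 counts and then 15 and 3. Both had most of their reads in dTAG-13 replicate 1. Hoxb13, which limits the growth of the tail, had 8 and 5 counts untreated and 2 and 3 with dTAG-13, and Hoxd13 had 6 and 7 and then 12 and 5. Hoxa13, Hoxc11 and Hoxc13 had at most 7 counts in any library. Hoxc12 and Hoxd12 had 0 counts in all 4 libraries, which allows up to 3 counts or 0.267 CPM in a library. Reads of groups 10 to 13 together were 2.49% and 0.903% of the reads of groups 1 to 4 in the untreated libraries and 7.45% and 3.17% with dTAG-13. The treated value was the higher in each number, and both treated values lay above both untreated ones. This ratio was picked after the values were seen. Groups 10 to 13 alone summed to 14.2 and 4.63 CPM untreated and to 25.3 and 9.68 CPM under dTAG-13, where untreated and treated libraries overlapped. Groups 1 to 4 summed to 571 and 512 CPM untreated and to 340 and 305 CPM under dTAG-13.

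Position in the cluster and the signed log2 fold change went together across genes. Over the 29 tested genes, which share the same 4 libraries and are no independent replicates, Spearman's rho between paralog group and log2 fold change was 0.56, with 0.63 within number 1 and 0.51 within number 2, with extremes of 0.37 when dTAG-13 replicate 1 was left out and 0.62 without untreated replicate 2. Without the genes of overlapping span it was 0.43. By cluster, rho was 0.64 in a (8 genes), 0.48 in b (9), 0.94 in c (6) and 0.77 in d (6). The difference of replicate 2 from replicate 1 also followed position, with rho of -0.30 in the untreated and -0.34 in the dTAG-13 libraries over the 29 genes. By cluster these were -0.69 and -0.69 in a, 0.48 and 0.083 in b, -0.14 and -0.49 in c and -0.71 and -0.60 in d. In a and d the size of rho was thus close to that for dTAG-13 against untreated. Within number 2 rho of the dTAG-13 difference was 0.40, 0.15, 0.49 and 0.83 in the same order, so that cluster b gave almost no order by position in that number. Cluster medians of the log2 fold change were -0.24 for a, -0.50 for b, -0.56 for c and 0.44 for d. The median of d was -0.44 without dTAG-13 replicate 1, that of b was -0.11 without untreated replicate 2, that of a was -0.084 without untreated replicate 2, and that of c was -0.24 without untreated replicate 1.

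**Figure D3:**
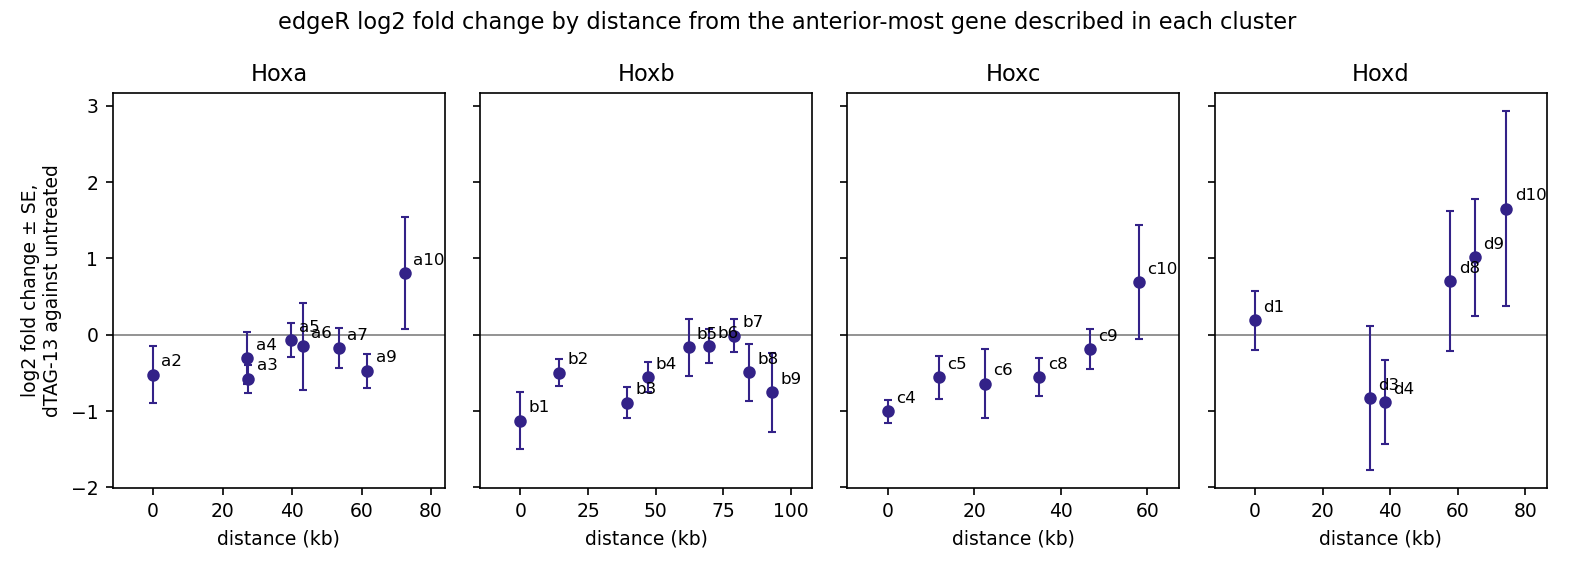
edgeR log2 fold change of dTAG-13 against untreated with its standard error (vertical) against the distance in kb between the middle of a gene and that of the most anterior gene described in its cluster (Hoxa2, Hoxb1, Hoxc4 or Hoxd1; horizontal), 1 panel per cluster and 1 point per tested gene, labelled with cluster letter and group number. In cluster d the points step from -0.88 at Hoxd4 to 0.70 at Hoxd8, and in cluster b all 9 lie below 0.

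Hox genes differed between replicates by about as much as between dTAG-13 and untreated, and in cluster d by more. The median absolute log2 difference between replicates 2 and 1 over the tested Hox genes was 0.65 in the untreated and 0.53 in the dTAG-13 libraries, against 0.23 and 0.23 over all genes tested. The median absolute difference between dTAG-13 and untreated was 0.53 within number 1 and 0.57 within number 2, against 0.18 and 0.18. In cluster d the replicate differences were 1.59 and 1.63, and those of dTAG-13 0.81 and 0.98. Every tested gene of the cluster had the lower value in replicate 2 of each group, with Hoxd1 closest to equal (-0.10 untreated, -0.92 with dTAG-13).

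The replicates also differed by position. Group 10 had a median log2 difference of replicate 2 from replicate 1 of -1.77 in the untreated and -1.30 in the dTAG-13 libraries, and Hoxa6 (-1.40 and -0.89) and Hoxc6 (-1.11 and -0.58) were lower too. Hoxb9 (1.25 and 0.70), Hoxb8 (0.88 and 0.64), Hoxb1 (0.78 and 0.75) and Hoxa2 (0.77 and 0.75) were higher in replicate 2. As a result cluster d held 12.5% and 15.3% of the Hox reads in replicate 1 (untreated and dTAG-13) and 4.195% and 5.18% in replicate 2. Cdx1, a caudal homeobox factor known to regulate Hox genes, was at 3.99 and 3.41 CPM in replicate 1 (untreated and dTAG-13) and at 29.4 and 29.5 CPM in replicate 2. The related factor Cdx2 was at 83.4 and 81.6 CPM in replicate 1 and at 181 and 128 CPM in replicate 2, in the same order. Cdx4 was not higher in replicate 2, at 30.1 and 25.3 CPM in replicate 1 and 29.3 and 14.7 CPM in replicate 2. What sets the replicates apart was not tested.

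**Figure D4:**
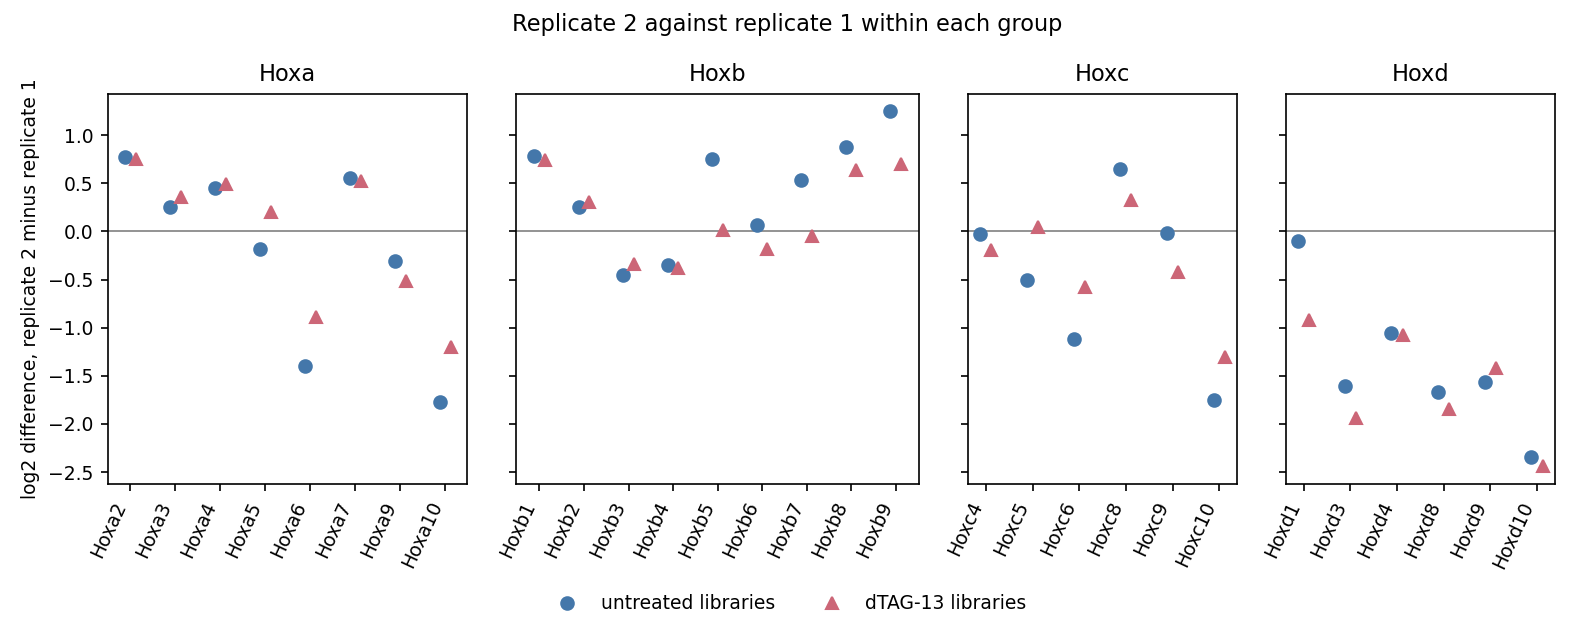
Difference in log2 CPM between replicate 2 and replicate 1 (vertical) for the 29 tested Hox genes in paralog order within each cluster, with circles for the untreated and triangles for the dTAG-13 libraries; 0 means equal levels. All 6 genes of cluster d lie below 0 in both groups, down to -2.44 at Hoxd10, and Hoxb9 lies above 0 (1.25 and 0.70).

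Genes around the Hox system were read from lists, in which edgeR called 0 genes in either direction. Of the 9 TALE cofactors (PBX, MEIS and PKNOX proteins) all were tested, 6 were lower and 3 higher, with a median log2 fold change of -0.28 and 0 at an unadjusted p under 0.05. Pknox2 was at 36.5 and 63.4 CPM untreated and at 30.03 and 33.0 CPM under dTAG-13, and its log2 fold change of -0.66 ± 0.28 was -0.21 without untreated replicate 2. Pbx3 was at 46.6 and 35.1 CPM and then 53.8 and 49.5 CPM (0.34 ± 0.18, and 0.15 without untreated replicate 2). Of 23 regulators known to act on Hox genes, 21 were tested, 15 were lower and 6 higher, and the median was -0.08. Fgf8, a tail bud ligand, was at 36.2 and 44.6 CPM untreated and at 47.7 and 56.7 CPM under dTAG-13 (0.37 ± 0.17, and 0.21 without untreated replicate 1), and the caudal factor Cdx4 was at 30.1 and 29.3 CPM and then 25.3 and 14.7 CPM (-0.57 ± 0.27, and -0.25 without dTAG-13 replicate 2). The retinoic acid receptors Rara, Rarg and Rarb had log2 fold changes of -0.0020, -0.024 and -0.45 ± 0.30. Rarb was at 11.4 and 10.3 CPM untreated and at 9.47 and 6.45 CPM under dTAG-13, without overlap (11.9% of all genes tested). Egr2, a hindbrain regulator of Hox genes in rhombomeres 3 and 5, had 0 counts in every library.

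Genes that flank the 4 clusters had a median near 0. Of 16 such genes 15 were tested, 10 were lower and 5 higher, 2 were lower in both numbers and 3 higher in both, and the median was -0.03. Skap2, beside the 3' end of cluster a, had a log2 fold change of -0.39 ± 0.23, and Mtx2, beside the 3' end of cluster d, of -0.03 ± 0.20. Evx1, a homeobox gene of the primitive streak and tail bud that lies beyond Hoxa13, was at 9.57 and 11.4 CPM untreated and at 21.2 and 17.5 CPM under dTAG-13. Its groups did not overlap, and its log2 fold change was 0.89 ± 0.24 (edgeR adjusted p = 0.931). Calcoco1, beside cluster c, was at 24.2 and 23.8 CPM untreated and at 31.3 and 29.7 CPM under dTAG-13 (0.35 ± 0.16). Evx2, beyond Hoxd13, had at most 0.0890 CPM.

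Markers of the tissues that express Hox genes differed between the groups as well, and their part in the Hox values was not tested. Of all genes tested 49.1% were lower and 50.9% higher. Of 14 tested neural tube markers 13 were lower with dTAG-13 (median -1.36), and the 15 listed genes summed to 385 and 603 CPM untreated and to 270 and 373 CPM under dTAG-13. Of 12 tested somite markers 11 were lower (median -0.88), with sums of 491 and 333 CPM and then 335 and 208 CPM for the 14 listed. Of 10 presomitic markers 8 were lower (median -0.69), with sums of 265 and 295 CPM and then 226 and 184 CPM. Every gene of these 3 lists had counts in at least 1 library. DESeq2 called 3 of the neural tube genes lower (0.119% of all genes it tested), Ptn (edgeR log2 fold change -0.85 ± 0.15), Irx3 and Sox1, and 1 somite gene, Dmrt2 (-1.996 ± 0.32), a transcription factor of the dermomyotome. Without the 3 called genes the neural tube list summed to 188 and 375 CPM untreated and to 165 and 269 CPM under dTAG-13, where the groups overlapped. Pou3f2 (-1.99 ± 0.41), the somite factor Tcf15 (-1.29 ± 0.31), Pcdh8 (-1.07 ± 0.28) and the segmentation clock gene Hes7 (-0.70 ± 0.20) passed neither test.

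The tail bud list had a median of -0.10, with 6 of its 11 genes lower and sums of 588 and 848 CPM untreated and 588 and 646 CPM under dTAG-13, and its smallest p were those of Evx1 and Fgf17 (0.35 ± 0.14). The list of hindbrain and cranial markers, which includes Hoxa2, Otx2, Gbx2, En1 and En2, had 5 of 8 tested genes lower (median -0.43). Its sums, which do not measure the hindbrain alone, were 154 and 201 CPM untreated and 135 and 148 CPM under dTAG-13. Egr2 was at 0, and Fgf15 had a log2 fold change of -0.81 ± 0.38, which was -0.42 without untreated replicate 2. All 14 gut endoderm markers were higher (median 0.64), with sums of 630 and 481 CPM untreated and 905 and 1032 CPM under dTAG-13, and DESeq2 called 3 of them higher (0.221% of all genes it tested). These were the keratins Krt8 (1.40 ± 0.27) and Krt18 (1.08 ± 0.22, and 0.72 without dTAG-13 replicate 2) and the tight junction gene Cldn6 (1.40 ± 0.36), which are known in epithelia in general. Without these 3 the list summed to 421 and 273 CPM untreated and to 528 and 388 CPM under dTAG-13, where the groups overlapped, and the endoderm factors Sox17 and Foxa1 had log2 fold changes of 0.24 ± 0.27 and 0.055 ± 0.33. All 10 pluripotent cell markers were higher (median 0.45), with sums of 347 and 448 CPM and then 436 and 636 CPM, Utf1 (0.66 ± 0.26, and 0.29 without dTAG-13 replicate 2) and Tdgf1 (0.53 ± 0.20, and 0.28 without dTAG-13 replicate 1) having the smallest p. Some genes stand in more than 1 list, Evx1, Fgf8 and Aldh1a2 among them.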

How the data were processed

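Gastruloid RNA was depleted of ribosomal RNA before library preparation, per the labels' protocols. The submitters' processing notes list HTSeq 0.12.4, STAR 2.7.6a, fastp 0.20.1, DESeq2 1.34.0, mm10 and GRCm38.p6, giving no roles. Neither the annotation nor a strand setting is stated. The deposited values are raw counts of reads per gene symbol. Summary lines stayed out of library sizes. Reads assigned to no feature were 24.1% to 35.7% of those in genes, in no feature or ambiguous.

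The main test was edgeR's quasi-likelihood test (version 4.0.16, two-sided, group as the only term). It used filterByExpr (minimum count 10, minimum total 15), TMM factors, robust glmQLFit and Benjamini-Hochberg adjustment over 13602 genes at 0.05. It was also tested on simulated counts with the same dispersion for every gene and no replicate differences beyond it. That does not show how it performs on these libraries. DESeq2 1.42.0, other scaling and filters, a replicate block, leaving out each library and leaving out genes of overlapping span were alternatives. The standard error is the size of the log2 fold change over the square root of F. Differences within a number or group use log2 CPM with a prior count of 2. CPM per kb uses union exons of GENCODE M21, and spans are RefSeq's (GRCm38.p6). Members and lists were chosen with earlier results of these data known. The symbol rule matched 39 rows, and 1 is not reported here. Noncoding Hox transcripts were not analysed here. Library values are given for every tested Hox gene. By rule, those described in full have the 4 smallest p of a position group or the 2 highest levels per kb of a cluster, and other lists give their 2 smallest p at an average log2 CPM of at least 0. The fuller accounts of Hoxb1, Hoxb4, Hoxd3 and Hoxd8, count ratios, sums without called genes and the TTTAT motif were chosen after values were seen. So were Egr2, Cdx1, Cdx2, Rara, Rarb, Rarg, Irx3, Sox1, Cldn6, Sox17, Foxa1, Skap2, Mtx2, Evx2, Meox1 and Tbx6.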

Additional observations from a re-analysis of the deposited data

How the results depend on the processing

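The replicate numbers are not said to mark a shared culture or day, and over the 13602 genes the deviations of untreated 1 and dTAG-13 1 from their group means correlated at 0.63, and over the 29 tested Hox genes at 0.93. With the number as a replicate block, edgeR called 395 genes higher and 241 lower, and 3 Hox genes higher (Hoxd8, Hoxd9 and Hoxd10) and 13 lower (Hoxa3, Hoxa9, Hoxb1, Hoxb2, Hoxb3, Hoxb4, Hoxb8, Hoxb9, Hoxc4, Hoxc6, Hoxc8, Hoxd3 and Hoxd4), against 0 without it, and Hoxb7 turned to 0.0068. DESeq2 called 26 genes higher, 14 lower and 2 Hox genes lower. No Hox gene changed sign with RLE or upper quartile factors, total counts, no filter, at least 50 counts in 2 libraries or DESeq2. The median of groups 5 to 9 (-0.17) was -0.19 with upper quartile factors or at least 50 counts and -0.21 with total counts. With no filter, which lets in nearly empty genes, the medians were -0.18 for all Hox genes, 1.24 for groups 10 to 13, -0.16 for cluster a and -0.37 for cluster c. Without Hox genes of overlapping span they were -0.19 for all, -0.52 for groups 1 to 4 and -0.32 for cluster a, and rho was 0.43.

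Leaving out 1 library gave 0 calls each time. The medians then ranged from -0.40 to -0.099 for all Hox genes, -0.76 to -0.64 for groups 1 to 4, -0.40 to -0.11 for groups 5 to 9, -0.13 to 2.69 for groups 10 to 13, -0.32 to -0.084 for cluster a, -0.68 to -0.11 for b, -0.50 to -0.24 for c and -0.44 to 1.12 for d, and rho from 0.37 to 0.62. Log2 fold changes that turned sign when 1 library was left out ranged from -0.20 to 0.022 for Hoxa5, -0.69 to 0.72 for Hoxa6, -0.48 to 0.13 for Hoxa7, -0.52 to 0.27 for Hoxb5, -0.27 to 0.28 for Hoxb7, -0.88 to 0.010 for Hoxb8, -1.26 to 0.0018 for Hoxb9, -1.09 to 0.012 for Hoxc6, -0.13 to 1.89 for Hoxc10, -0.36 to 0.56 for Hoxd1, -2.12 to 0.19 for Hoxd3, -0.51 to 1.78 for Hoxd8, -0.30 to 4.32 for Hoxd10 and -0.65 to 0.10 for Zeb2. The sign turned without untreated replicate 1 for 4 Hox genes, untreated replicate 2 for 5, dTAG-13 replicate 1 for 6 and dTAG-13 replicate 2 for 1 (Hoxa6). The lone library of a group was taken to vary like the other group. The cause was not tested. Depth limits Hoxd10, with 1 to 41 reads a library, and groups 11 to 13.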
